A study of Drosophila melanogaster with 2 samples.

Results

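Intronic peaks far from any promoter made up 677 of the 3216 reproducible binding peaks of the CG14014 fusion protein in fly embryos, or 21.1% (95% Wilson interval 19.7 to 22.5). A peak was counted when its summit lay inside an intron of an annotated gene, in no exon, and more than 2000 bp from the nearest transcription start site (TSS) of any protein-coding transcript. The other peaks of the list were 1569 at promoters (within 500 bp of a coding TSS), 483 in introns at 500 to 2000 bp, 384 in intergenic sequence and 103 in exons. Intergenic peaks lay more than 500 bp from a coding TSS, so that class was not limited to distances beyond 2000 bp. The 677 peaks lay in 434 genes, had AT-rich summits, were denser on the X chromosome than on the autosomes, and had lower signal than promoter peaks in the conservative list of reproducible peaks.

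The samples were whole Drosophila melanogaster embryos collected at 0 to 24 h, from transgenic flies of strain CG14014-GFP that expressed CG14014-eGFP, and an anti-GFP antibody was used for the immunoprecipitation (ChIP-seq). Both samples, biological replicates 1 and 2, carried the same fusion protein, so the labels gave 1 group and no conditions were compared. A whole embryo mixes all cell types and all stages of embryogenesis, so a peak cannot be placed in a tissue or a stage. Replicate 1 alone gave 4617 peaks and replicate 2 gave 2737, read depth is unknown for both, and a control experiment listed in the labels as possible was left unused.

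Introns are the parts of a gene that are transcribed and then spliced out of the RNA. In flies they are often long in developmentally regulated genes, and many hold enhancers, short stretches to which transcription factors bind and from which they act on a distant promoter. Neither enhancer activity nor expression was measured here.

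The summit sequences are shown first, because the summits differed from their surroundings in base composition. Each of 4 among the 5 strongest peaks is represented by the 101 bp centred on its summit and by a flanking window of the same length centred 300 bp to the right, both from the plus strand of the RefSeq release 6 sequence (dm6). Capitals mark any of the 5 6-mers with the smallest p, named with the results on 6-mers, on either strand. These 6-mers were picked from the same summits and flanks, so the capitals are an illustration and no test.
Tlk summit: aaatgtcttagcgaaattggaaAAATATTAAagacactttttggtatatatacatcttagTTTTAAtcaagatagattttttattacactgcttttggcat
Tlk flank: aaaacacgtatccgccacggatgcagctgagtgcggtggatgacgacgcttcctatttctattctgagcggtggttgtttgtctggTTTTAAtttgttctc
CG32486 summit: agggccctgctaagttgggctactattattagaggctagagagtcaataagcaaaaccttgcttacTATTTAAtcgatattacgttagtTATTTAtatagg
CG32486 flank: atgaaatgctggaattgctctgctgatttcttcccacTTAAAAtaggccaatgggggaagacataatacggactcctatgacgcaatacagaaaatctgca
CHES-1-like summit: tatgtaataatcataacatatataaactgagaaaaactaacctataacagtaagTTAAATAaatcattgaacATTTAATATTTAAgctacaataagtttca
CHES-1-like flank: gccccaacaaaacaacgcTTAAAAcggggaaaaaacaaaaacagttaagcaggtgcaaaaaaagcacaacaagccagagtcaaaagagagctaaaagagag
osa summit: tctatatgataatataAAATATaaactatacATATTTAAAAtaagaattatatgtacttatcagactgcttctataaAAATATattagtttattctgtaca
osa flank: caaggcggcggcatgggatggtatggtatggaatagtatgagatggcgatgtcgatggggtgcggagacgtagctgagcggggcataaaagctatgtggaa
These windows lay, for the summit and the flank in turn, at chrX:3742159-3742259 and chrX:3742459-3742559 (Tlk), chr3L:3060753-3060853 and chr3L:3061053-3061153 (CG32486), chrX:7706944-7707044 and chrX:7707244-7707344 (CHES-1-like), and chr3R:17700512-17700612 and chr3R:17700812-17700912 (osa). All 4 pairs lay in introns. GC content was 24.8% at the Tlk summit and 47.5% in its flank, and 16.8% and 54.5% at osa.

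Across all 677 peaks, mean GC content was 32.1% ± 8.39 (SD over peaks) in the summit window and 43.2% ± 8.82 in the flanking window. The summit was the poorer in GC at 549 peaks, the richer at 118 and equal at 10, so that 81.1% were lower (77.97 to 83.9). The exact two-sided sign test gave p = 2.57e-67 over peaks, which are not independent replicates. In the lists of replicates 1 and 2 alone, 67.1% and 82.3% of such peaks were lower at the summit. All intronic sequence beyond 2000 bp from a coding TSS, 43.9 Mb in total, had a GC content of 39.99%. The dip was narrow, since mean GC was 30.9% in the 20 bp just left of the summit and 43.5% in the 20 bp centred 110 bp away.

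**Figure D1:**
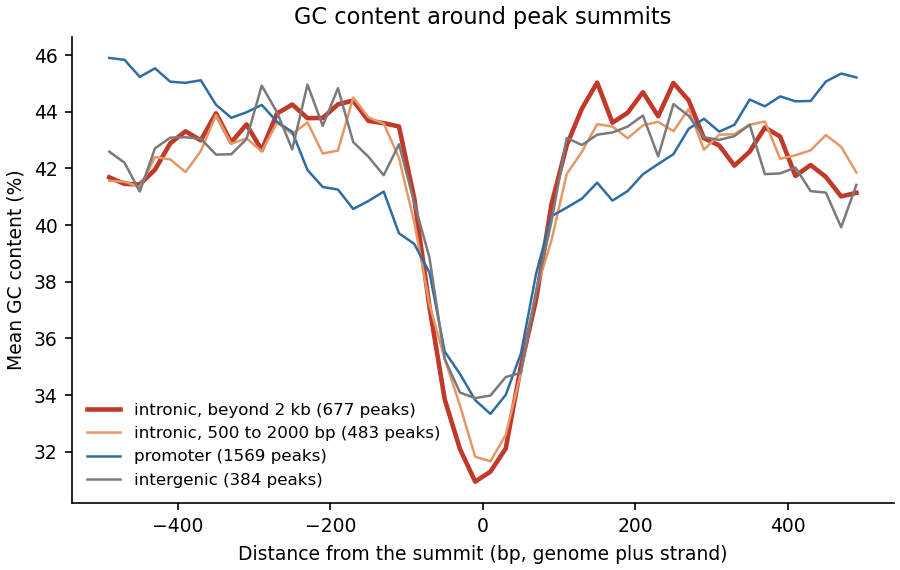
Mean GC content (%) in bins of 20 bp against distance from the summit (bp) for 4 classes of peak, with one line per class and the number of peaks in the legend. All 4 lines dip at the summit, and the line of intronic peaks beyond 2 kb reaches the lowest value, 30.9%.

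The dip was shared with the other classes of peak. GC was lower at the summit than in the flank in 79.1% of the intronic peaks at 500 to 2000 bp, which did not differ from the 81.1% here beyond counting error (odds ratio 1.13, two-sided Fisher's exact test, exact adjusted p = 0.411). It was lower in 71.9% of promoter peaks (odds ratio 1.68, exact adjusted p = 9.48e-06) and in 72.9% of intergenic peaks (odds ratio 1.59, exact adjusted p = 0.00379). The intergenic difference was lost in the optimal list (odds ratio 1.10, exact adjusted p = 0.508), and in the list of replicate 1 alone (odds ratio 1.22, exact adjusted p = 0.131). Stronger peaks had the lower GC: the summit was poorer than the flank in 89% of the 100 strongest, 84% of those ranked 101 to 300 and 77.5% of the rest.

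Of 25 short words searched on both strands, 2 were more frequent at summits than in flanks (8% of the words) and 2 were less frequent (8%), with exact McNemar tests adjusted by the Benjamini-Hochberg method. TATAAA, the core of the TATA box, stood in 23.0% of summit windows and 10.6% of flanks (exact adjusted p = 2.31e-08). TAATTA, the core bound by many homeodomain proteins, stood in 10.3% and 4.87% (exact adjusted p = 0.0016). CACACACA stood in 0.886% of summits and 6.50% of flanks (exact adjusted p = 4.05e-07), and GAGAGAG, a run bound by GAGA factor, in 0.443% and 3.55% (exact adjusted p = 4.1e-04). The shares of TATAAA did not differ past the threshold from those of the other classes, at 23.0% of the intronic peaks at 500 to 2000 bp, 21.5% of promoter peaks and 20.6% of intergenic peaks. Nor did those of TAATTA, at 11.8%, 10.1% and 9.64% in the same order. In the list of replicate 1 alone, TATAAA passed again, while TAATTA (ratio 1.44, exact adjusted p = 0.144), CACACACA (0.549, exact adjusted p = 0.144) and GAGAGAG (0.460, exact adjusted p = 0.101) did not. With the distance limit at 5000 bp, TAATTA and GAGAGAG did not pass (exact adjusted p = 0.449 for both), while TATAAA and CACACACA did. TAATTA did not pass either with 25 bp to each side of the summit (exact adjusted p = 0.0992). Both words that were more frequent hold only A and T, and the 2 that were less frequent hold C or G. For none of these 4 was the part beyond the base composition of the summits tested.

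Among all 6-mers, 249 (12%) were found more often at summits and 328 (15.8%) less often, and the 36 that lack C and G were each found more often. Of the 328, 11 held fewer than 3 of C and G. For the 6-mers too, the part beyond the base composition of the summits was not tested. Replicate 1 alone gave 236 6-mers that passed in either direction and replicate 2 alone 559, against 577 here. AAATAT had the smallest p (36.6% of summits and 12.6% of flanks, exact adjusted p = 1.45e-19). ATTTAA stood in 31.0% and 9.45%, TATTAA in 23.6% and 6.06%, TTAAAA in 32.2% and 12.1%, and TAAATA in 30.3% and 10.9%. At least 1 of these 5 stood in 490 summit windows (72.4%) and in 231 flanks (34.1%). The 5 were picked for the smallest p in these same windows, so their joint excess was fixed by the choice. One 6-mer with a C or G, TCTTAA, chosen after its values were seen, stood in 12.3% of summits and 2.51% of flanks (exact adjusted p = 3.39e-10), and in 11.7% of promoter summits.

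Of 75 comparisons of word shares (25 words against 3 classes), 3 passed (4%), and in all 3 a word was rarer here than at promoters. TATCGATA, the element bound by Dref, was in 0 of 677 summits, which allows a share of up to 0.443%, and in 51 promoter summits (3.25%, exact adjusted p = 4.07e-07). CGATA, the core bound by BEAF-32, which also lies inside TATCGATA, was in 9.01% of summits here and 19.0% at promoters (odds ratio 0.422, exact adjusted p = 6.49e-08). CATCNCTA, a core promoter word, was in 0.148% here and 2.74% at promoters (odds ratio 0.0525, exact adjusted p = 8e-05). The CATCNCTA difference was lost in the list of replicate 2 alone (odds ratio 0.178, exact adjusted p = 0.0969), with 25 bp to each side of the summit (exact adjusted p = 0.0711) and among peaks with an irreproducible discovery rate (IDR) of 0.001 or less (exact adjusted p = 0.153). At that IDR the CGATA difference was lost too (odds ratio 0.661, exact adjusted p = 0.614). A word that is missing from these 101 bp says nothing of the factor.

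Signal, the authors' value for the strength of a peak, had a median of 115 here (quartiles 89.02 to 173), against 137 at promoters, 130 in introns at 500 to 2000 bp and 116 in intergenic sequence. It was above the median of the whole list (128) in 43.0% of the peaks, against 54.7% of promoter peaks (odds ratio 0.625, two-sided Fisher's exact test, exact adjusted p = 1.21e-06) and 51.3% of the nearer intronic peaks (odds ratio 0.714, exact adjusted p = 0.00757). Intergenic peaks, at 43.2%, did not differ from them beyond counting error (odds ratio 0.99, exact adjusted p = 0.949). In the list of replicate 1 alone the difference from promoters was not detected (odds ratio 0.934, exact adjusted p = 0.572). The difference from the nearer intronic peaks was detected in neither replicate's list alone (odds ratio 0.855, exact adjusted p = 0.369 in replicate 1, and 0.817, exact adjusted p = 0.199 in replicate 2), nor in the optimal list (0.852, exact adjusted p = 0.115). Of the 300 strongest peaks in the whole list 30 were of this class, and of the 25 strongest 1 was, beside 21.1% of the whole list.

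In the thresholded list of replicate 1, 86.1% of the peaks were found again, and in that of replicate 2, 66.6%. Promoter peaks were found in the replicate 2 list more often (77.0%, odds ratio 0.596, two-sided Fisher's exact test, exact adjusted p = 1.42e-06), as were intronic peaks at 500 to 2000 bp (73.9%, odds ratio 0.704, exact adjusted p = 0.0119). Neither difference passed the threshold at an IDR of 0.001 (exact adjusted p = 0.0806 for both). The difference from nearer intronic peaks did not pass either with the distance limit at 1000 bp (exact adjusted p = 0.233). In the replicate 1 list the classes did not differ past the threshold, with 88.97% of promoter peaks (exact adjusted p = 0.194). Both lists held 399 of the 677 peaks and neither held 42. Among 669 peaks with a value in both rankings, replicate 1 was higher in 488, the median ratio of replicate 1 to replicate 2 was 1.29, and Spearman's rho was 0.544 across peaks. Replicate 1 was also the higher elsewhere, with a median ratio of 1.23 over the whole list. It was 1.27 in introns at 500 to 2000 bp, 1.27 in intergenic sequence and 1.18 at promoters.

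**Figure D2:**
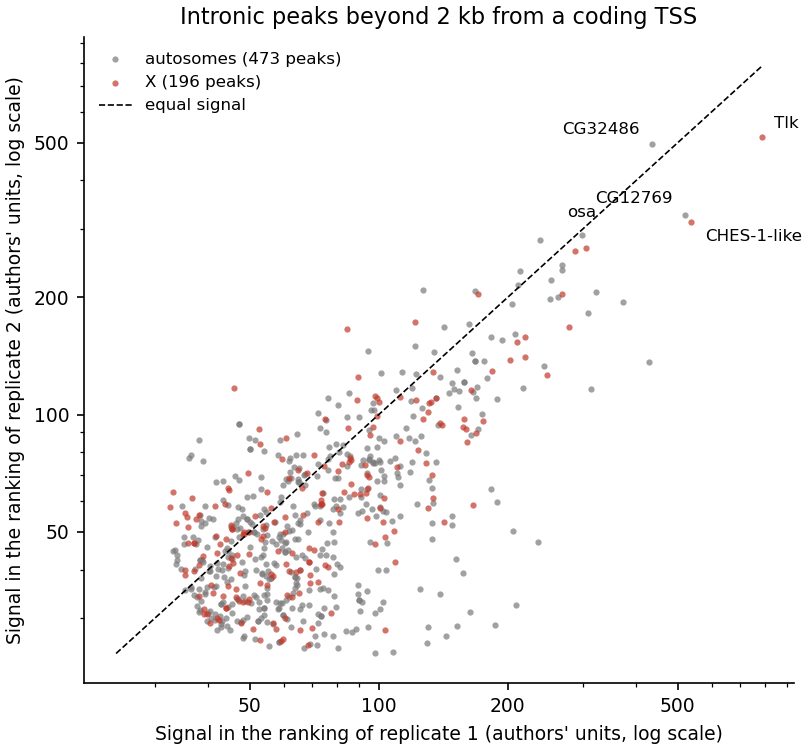
Signal of 669 intronic peaks beyond 2 kb in the ranking of replicate 2 against that of replicate 1, in the authors' units on log axes, with X-linked peaks in red and the 5 strongest labelled by host gene. Most points lie below the dashed line of equal signal, and the strongest peaks are high in both replicates.

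Some peaks had a far lower value in the conservative list than in the replicate rankings. A replicate value is the highest among the overlapping peaks of that ranking, so a weak peak can carry the value of a stronger neighbour. A signal under 40, from 2.18 to 32.3, was listed for 21 of the peaks, all 330 bp wide. Their signals in the ranking of replicate 1 were 33.6 to 158, and in that of replicate 2 26.1 to 122 for the 20 that had one. The whole list held 116 peaks with such a signal, and the cause was not tested. One of them lies in comm3, with 2.24 in the list, 47.1 in replicate 1 and 94.4 in replicate 2. No peak of comm3 had a higher replicate value, its strongest peak had 147 in the list, and summits there lay as close as 213 bp. A Reck peak with 15.9 in the list had 53.2 and 43.1 in replicates 1 and 2, the same values as the Reck peak with 99.1.

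The strongest peak, at chrX:3742070-3742359, lay in intron 1 of Tlk (FBgn0283657), which encodes Tousled-like kinase, a kinase with roles in chromatin assembly. Its signal was 1301, with 786 in replicate 1 and 518 in replicate 2. Next came CG32486 (FBgn0266918) with 927 (436 and 495 in replicates 1 and 2) and CG12769 (FBgn0033252) with 839 (519 and 325). The 4th, at chrX:7706849-7707125 in intron 1 of the forkhead factor gene CHES-1-like (FBgn0029504), had 829 (536 and 312). CG32486 alone of these 4 was higher in replicate 2. All of the 20 strongest were in the thresholded lists of both replicates, 15 of them lay in an intron 1, and 6 were on X.

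The other hosts of the 20 strongest are given by what they encode, and no common function of them was tested. The peak in osa, which encodes a subunit of the Brahma remodelling complex, had a signal of 585 (299 in replicate 1 and 289 in replicate 2) and lay 13491 bp from the nearest coding TSS. Gug, the gene of the co-repressor Atrophin, had 536 (321 and 207), simj, for a subunit of the NuRD complex, 526 (238 and 280), and upSET, for a SET-domain protein, 453 (252 and 198). The peak with 498 (268 and 235) lay in both Mi-2, for the remodelling ATPase of NuRD, and Su(Tpl), for the elongation factor ELL. Among kinase genes, Raf, the kinase below receptor tyrosine kinases, had 2 of the 20, at 572 (305 and 268) and 441 (278 and 168). Btk, a Tec-family tyrosine kinase, had 568 (372 and 195), Eip63E, a cyclin-dependent kinase, 498 (308 and 183), and mnb, a DYRK kinase, 470 (269 and 204). Transcriptional regulators in the set were sbb, with 566 (428 and 137), and the nuclear receptor gene Hr3, with 514 (268 and 242), where the peak also lay within CG12912 and CG46321. Dys, which encodes dystrophin, had 477 (253 and 222), and CG34417, CG13894 and CG9328 had 549, 468 and 444. All but simj, CG9328 and CG32486 were higher in replicate 1, as were 72.9% of the peaks of this class. The sbb peak had the widest gap between the replicates among these 20.

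The peaks were spread over many genes, with some gathered in a few. Of the 434 host genes, 275 held 1 peak, 92 held 2 and 67 held 3 or more, and the last together had 247 of the peaks. Some of these counts include overlapping peaks, as in Notum, whose 2 summits lay 212 bp apart. With overlapping peaks merged, 656 peaks were left, in the same number of protein-coding hosts. Protein-coding hosts numbered 413 of the 4351 coding genes that have intronic sequence beyond 2000 bp from a coding TSS (9.49%). The share with a peak followed the amount of such sequence: with the genes in 4 groups of nearly equal size, none of 1091 had a peak at up to 0.241 kb, 0.737% and 9.47% in the middle groups, and 27.8% from 8.61 kb. A count of peaks in a gene therefore has to be read beside the length of its introns.

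Most peaks, 10, lay in kirre, which encodes an immunoglobulin-family adhesion protein of founder myoblasts, over 322 kb of a gene with 291 kb of such sequence (3.44 peaks per 100 kb). Their signals ran from 77.3 to 307, and 8 were in the list of each replicate. Raf was denser, with 7 peaks in 28.7 kb (24.4 per 100 kb) and signals of 88.1 to 572. The 7 peaks of sbb, which encodes the co-repressor Brakeless, had signals of 130 to 566, lay in 46.8 kb (14.97 per 100 kb), and were in the lists of both replicates throughout. The 7 peaks of CG12535 (82.9 to 191) are also among the 8 of lncRNA:CR44999, which overlaps it, so those 2 hosts share peaks. Hr4, a nuclear receptor gene of the ecdysone cascade, held 6 peaks, with signals of 89.7, 91.2, 106, 258, 359 and 381. Snoo, lncRNA:CR44357 and Tet also held 6, with a lower summed signal. CHES-1-like, with 5 peaks in 7.87 kb, reached 63.5 per 100 kb.

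**Figure D3:**
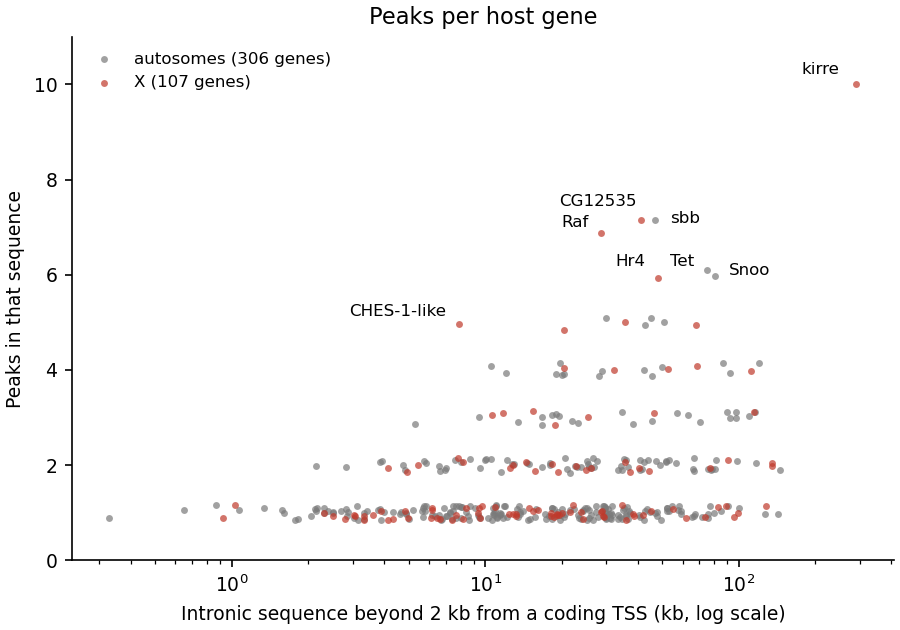
Number of peaks per protein-coding host gene against the length of its intronic sequence beyond 2 kb from a coding TSS (kb, log scale), one point per gene, moved slightly up or down so that points do not hide each other, with X-linked genes in red. Genes with 5 or more peaks have at least 20.4 kb of such sequence except CHES-1-like, with 7.87 kb, and kirre has 10 peaks in 291 kb.

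Host genes with a peak in a distant intron also had a promoter peak more often. A promoter peak at one of their own start sites was found for 27.6% of the 413 hosts and for 18.1% of the 3938 other eligible genes (odds ratio 1.72, two-sided Fisher's exact test, p = 6.8e-06). Among the 1087 genes with the most such sequence the shares were 26.8% and 13.5% (odds ratio 2.35, exact p = 6.13e-07). Over all eligible genes the odds ratio was 2.86 in the list of replicate 1 alone and 1.46 in that of replicate 2 alone. This comparison was made after the data were seen.

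Gene lists are described by counts beside the 9.49% of all eligible genes and their 15.03 peaks per Mb of such sequence. The lists were chosen with earlier results of these data known, so a value above these is no independent result. Among the nuclear receptor and ecdysone response genes, 6 of 16 eligible held a peak (37.5%), with 16 peaks (36.4 per Mb); the strongest were in Hr3 (514), Hr4 (381) and Eip75B (193). Among intracellular factors of the Wingless and Dpp pathways, 5 of 16 did (31.2%, 81.0 per Mb), led by sbb (566), Snoo (267), a Ski-family co-repressor, and shn (154), the zinc finger partner of Smads. Of the 21 peaks in that list, sbb, Snoo and shn held 7, 6 and 5. The list compiled for developmental zinc finger factors had hosts in 8 of 27 (29.6%, 51.3 per Mb). These hosts included pnt, with 5 peaks, which encodes an ETS-domain factor. The list shares sbb and shn with that of the Wingless and Dpp factors, and ush (271), the partner of GATA factors, was second. Among signalling receptors and ligands, 13 of 34 were hosts (38.2%, 30.0 per Mb), with arr (276), dlp (251) and N (209), the Notch receptor, on top. Of chromatin factors 6 of 26 were (23.1%, 65.0 per Mb), led by Tlk, osa and trx (226).

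Density was not above 15.03 per Mb in every list with a share of hosts above 9.49%. RNA-binding and splicing regulators had 9 hosts of 26 (34.6%) with 9.80 peaks per Mb, led by shep (177), fne (164) and how (135). Cell adhesion and axon guidance genes had 12 of 49 (24.5%) with 13.6 per Mb, led by Dys (477), kirre (307) and side (212). Cytoskeleton and muscle genes had 7 of 32 (21.9%, 33.4 per Mb), with msn (204.8), ena (182) and mew (155). Ion channel and synapse genes had 5 of 38 (13.2%, 6.69 per Mb), with dnc (231), Ih (169) and Shab (116). Homeodomain and POU factors had 4 of 37 (10.8%, 15.5 per Mb), with hth (272), ct (151) and Lim1 (95.7). Of the 8 Hox genes only Antp was a host, with 4 peaks of 97.0 to 169. The lists differ in intron length, with a median of 0.897 kb for chromatin factors and 30.9 kb for adhesion genes, and none of the lists was tested. The median was 1.59 kb over all eligible genes, while 27.8% of the genes with at least 8.61 kb were hosts. Ribosomal protein genes, with 2 eligible, held none.

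Density on the X chromosome was higher than on each autosomal arm. There were 199 peaks in 8.22 Mb of intronic sequence beyond 2000 bp on X (24.2 per Mb) and 478 in 34.4 Mb on the autosomal arms (13.9 per Mb), a ratio of 1.74 (95% exact interval 1.47 to 2.06, exact binomial test, p = 2.55e-10). The autosomal arms ranged from 11.1 per Mb on 3R to 16.3 on 2L, and no peak lay on chromosome 4 or Y, which have 0.446 and 0.872 Mb of such sequence. In intergenic sequence the ratio of X to autosomes was 0.967, and in introns at 500 to 2000 bp it was 1.18; these differences between classes were not tested. With each gene counted once, 13.8% of 777 eligible X-linked genes and 8.74% of 3500 autosomal ones were hosts (odds ratio 1.67, two-sided Fisher's exact test, p = 3.89e-05), and X-linked genes had a median of 2.02 kb of such sequence against 1.42 kb. Overlapping genes can share a peak here as well, so these genes are not independent.

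The size of the X difference depended on the replicate. From the list of replicate 2 alone the ratio was 1.88 (1.55 to 2.26), from that of replicate 1 alone 1.27 (1.09 to 1.47), and from the optimal list 1.28 (1.12 to 1.46). In the replicate 2 list stood 73.4% of the X-linked peaks and 63.8% of the autosomal ones, while in the replicate 1 list the shares were 86.9% and 85.8%. Median signal was 116 on X and 115 on the autosomes. The sex of the embryos was not collected, per the labels, and its part in these values was not tested. The X comparison was made after the data were seen, and some peaks lie near each other, so the interval covers counting error only.

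**Figure D4:**
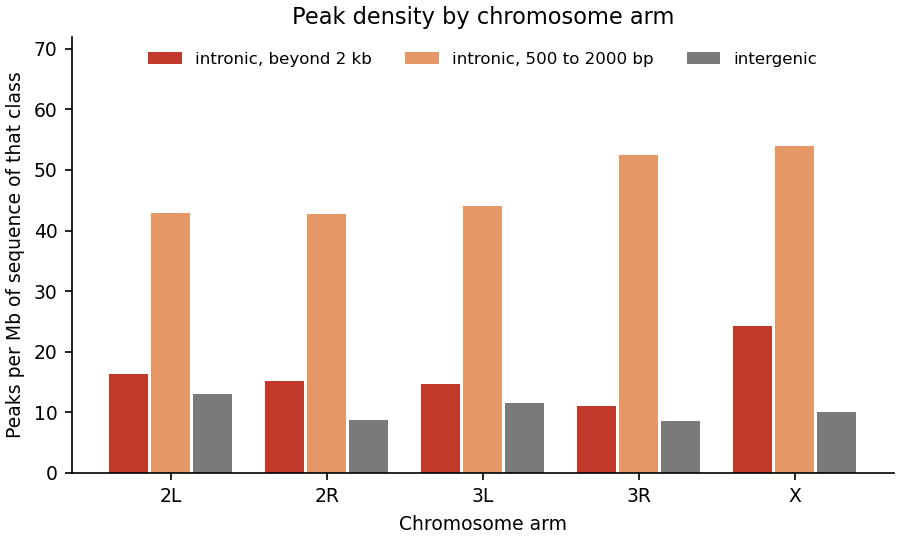
Peaks per Mb of sequence of the same class on each chromosome arm, for intronic peaks beyond 2 kb (red), intronic peaks at 500 to 2000 bp (orange) and intergenic peaks (grey). The red bar is highest on X, at 24.2 per Mb, while the grey bar on X, at 10.1, lies within the range of the autosomal arms.

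Within the gene, 58.5% of the peaks lay in the first intron of at least 1 transcript, a class that holds 37.7% of the intronic sequence beyond 2000 bp. The introns had a median length of 13736 bp, and the summits lay a median of 3044 bp from the nearest exon. The median distance to a coding TSS was 5912 bp (quartiles 3473 to 10885), and the nearest such TSS belonged to a host gene for 484 peaks (71.5%). Signal did not fall steadily with distance: its median was 119 at 2000 to 4000 bp, 129 up to 8000 bp, 104 up to 16000 bp and 113 beyond. The most distant peak lay 85876 bp from a coding TSS, in hth, which encodes a homeodomain cofactor of Hox proteins. Within 500 bp of the TSS of a noncoding transcript lay 16 peaks, and 117 (17.3%) had another peak of the whole list within 1000 bp.

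At the threshold of 2000 bp, the 2 nearest peaks inside were in Atg1 together with CG42709 (2008 bp, signal 85.2) and in CG43658 (2013 bp, 84.7). The 2 just outside were in CHES-1-like (2000 bp, 138) and Reck (1996 bp, 15.9).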

How the data were processed

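Peak lists from anti-GFP ChIP-seq on 2 biological replicates of CG14014-eGFP embryos were used. Peaks were on dm6, with fragments of 200 to 800 bp, per the labels. The sources used here give neither the aligner nor the caller. The deposited signal value per peak is in the authors' units, with a scale that is not given, and served for description and ranking inside one list. The authors deposited the irreproducible discovery rate (global IDR) as −log10. No file gave read counts, so depth is unknown and intervals cover counting error only.

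The main set was the conservative list (reproducible between replicates, IDR of 0.01 or less). Genes and TSS came from Ensembl release 115, without transposable elements, and sequence from RefSeq release 6. Replicate values are the highest signal among overlapping peaks (at least 1 bp) in each replicate's own ranking. Words and 6-mers were counted in 101 bp on both strands and tested by exact McNemar tests, with odds ratios of discordant peaks (0.5 added). GC was compared by exact sign tests and classes by two-sided Fisher's exact tests over peaks. The McNemar tests and the tests between classes were Benjamini-Hochberg adjusted at 0.05. The sign tests, the binomial test for X and the Fisher's exact tests on host genes were not adjusted. Shares at 0 were limited by 3 counts. Peaks are not independent replicates, so p-values here say nothing of the spread between embryo collections.

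The words stood for known or likely sites: TAATTA (homeodomain), TAATCC (Bicoid type), TTTATGG (Caudal type), CAGGTAG (Zelda), AGATAAG (factors of the GATA type), TGTTTAC (forkhead), AACNGGTT (Grainyhead), CAGCTG for one E-box, CATATG for another E-box, CACGTG for a further E-box, AGGTCA (nuclear receptors), GTGGGAA (Suppressor of Hairless), TGANTCA (AP-1), TTCNNNGAA (bound by STAT), GAGAGAG (bound by GAGA factor), CACACACA (a dinucleotide repeat), GCCATTT (Pho), TGCATAC (Su(Hw)), CGATA (BEAF-32), TATCGATA (Dref), GGTCACAC (a core promoter motif), CATCNCTA (a core promoter motif), TATAAA (core of the TATA box), AAAAAAAA (run of adenines) and AATAAAA (A-rich).

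The members, the 12 gene lists (393 genes, all matched) and the words were chosen with earlier results of these data known. Named were hosts of the 20 strongest peaks, 6 hosts with most peaks (ties at 6 peaks settled by summed signal), up to 3 hosts per list, 2 peaks on each side of 2000 bp, the words that passed and 5 leading 6-mers. The X, intron 1 and host promoter comparisons, the groups by rank and distance, the signal limit of 40 and the merging of overlapping peaks were added after the data were seen, as was naming CHES-1-like for its density, comm3, hth for its distance and the 6-mer TCTTAA. The sequences of some strong peaks are not reported here. Functions were checked on simulated data. Tests used scipy 1.17.1, with numpy 2.4.6 and pandas 2.3.3 under Python 3.11.15.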

Additional observations from a re-analysis of the deposited data

How the results depend on the processing

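Of 243 recomputed values, 197 kept their direction and their side of the threshold, or stayed within the limit set for counts and shares, 21 lost significance and 18 counts or shares moved. The other 7 changed direction without passing the threshold in either setting. For signal against intergenic peaks (odds ratio 0.99) these were 1.03 to 1.11 under 5 alternatives. For the GC dip against nearer intronic peaks (1.13) they were 0.979 in the optimal list and 0.939 in the list of replicate 2 alone. No result that passed the threshold changed direction. The number of peaks was 385 beyond 5000 bp, 326 at an IDR of 0.001 and 1272 in the optimal list, and 536 to 998 with a replicate left out (the other replicate's list alone). The share was 28.6% beyond 1000 bp, 11.97% beyond 5000 bp and 17.9% at an IDR of 0.001. Coding host genes numbered 241, 244 and 623 beyond 5000 bp, at an IDR of 0.001 and in the optimal list. By construction, a stricter distance or IDR limit can only lower the counts of peaks and host genes. The distance limit likewise sets the direction of the share. The share at an IDR of 0.001 and the values from other lists are not fixed in this way. 6-mers passing the threshold were 577 in the main result, 238 beyond 5000 bp, 326 at an IDR of 0.001, 211 with windows of 25 bp to each side, and 236 to 559 with a replicate left out. Words passing fell from 4 to 2 beyond 5000 bp. Word shares that differed from other classes were 5 beyond 1000 bp, 8 in the optimal list, 8 with 100 bp to each side, and 4 to 7 with a replicate left out. The odds ratio for a GC dip against intergenic peaks was 1.10 in the optimal list and 1.22 to 1.60 with a replicate left out. The odds ratio for overlap with the replicate 2 list against nearer intronic peaks was 0.783 beyond 1000 bp and 0.440 at an IDR of 0.001, and against promoters 0.509 at an IDR of 0.001. None of these overlap differences passed the threshold. The odds ratio for signal above the list median against nearer intronic peaks was 0.863 beyond 1000 bp, 0.754 at an IDR of 0.001, 0.852 in the optimal list and 0.817 to 0.855 with a replicate left out, and against promoters it was 0.612 to 0.934 with a replicate left out. The X ratio and the odds of X-linked and promoter-bound hosts passed under each alternative run, at 1.27 to 1.91, 1.27 to 1.81 and 1.46 to 2.86. The causes were not tested. No paired analysis was possible because both samples belong to 1 group. Depth is unknown, so its limits could not be set.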
